A study of Mus musculus with 40 samples.

Results

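The 39 autophagy machinery genes described here were taken from the 18024 genes of the deposited table by name. They are all genes whose symbol begins with Atg and a digit, together with 20 named genes: the kinases Ulk1 and Ulk2, their partner Rb1cc1, the Atg8 family (Map1lc3a, Map1lc3b, Gabarap, Gabarapl1, Gabarapl2), the lipid kinase subunits Becn1, Pik3c3 and Uvrag, the effectors Wipi1 and Wipi2, the cargo receptors Sqstm1, Optn, Bnip3 and Bnip3l, and the regulators Tfeb, Dram1 and Dram2. The name rule used no measured value, though the set was chosen with earlier results of these data known. GENCODE M21 types all 39 as protein coding, although 1 of them, Atg4a-ps, is a pseudogene by its name and had few reads.

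Macroautophagy encloses cytoplasm, damaged organelles or protein aggregates in a double membrane, the autophagosome, which then fuses with the lysosome. A kinase complex around Ulk1 starts the process, a lipid kinase complex around Becn1 marks the membrane with phosphatidylinositol 3-phosphate (PI3P), and 2 ubiquitin-like conjugation systems attach the Atg8 proteins to its lipids, where receptors such as Sqstm1 bring in cargo. The transcription factor p53 is known to induce autophagy regulators, among them DRAM1 in human cells, and its level is held down by the ubiquitin ligase Mdm2. Most steps of autophagy are set at the level of proteins, which RNA-seq does not measure.

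The libraries were made from pancreas, kidney, ovary, heart and small intestine of C57BL/6j mice. The mice were 60 days old, and acute p53 activation had begun 24 hours earlier. FMTg mice (Mdm2FM/- Cag-CreERTg, 5 libraries per tissue) lose Mdm2, and Tg mice (Mdm2+/- Cag-CreERTg, 3 libraries per tissue) keep 1 copy of it. Both genotypes therefore carry 1 inactive Mdm2 allele and the CreER transgene, whose CAG promoter is active in most cell types, and no library came from a mouse with 2 Mdm2 copies. The 40 libraries came from 13 mice, and the same 3 Tg mice gave all 15 Tg libraries.

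Libraries held 7155461 to 29031526 reads. Mdm2 transcripts were more abundant in every FMTg library than in any Tg library of the same tissue; in kidney they were 3781, 5696, 3672, 3499 and 3229.5 normalised reads in FMTg kidney, against 918, 959 and 1039.7 in Tg kidney (log2 difference 2.00 ± 0.17, SE; limma adjusted p = 0.000685). Gene counts do not separate the deleted part of Mdm2 from the rest, so this does not check the deletion itself. Markers of the expected cells were abundant in their tissues: the 9 of 10 listed acinar markers in the table summed to 29.6 to 52.2% of reads in FMTg pancreas and 35.2 to 40.4% in Tg pancreas, and 8 of 8 cardiomyocyte markers to 1.95 to 5.44% of reads in FMTg heart and 3.96 to 4.61% in Tg heart. Some libraries stood apart. Acinar markers reached 20.1% of reads in Tg ovary replicate 1, against 0.104 and 0.376% in the other 2 Tg ovary libraries. FMTg replicates 4 and 5, the mice with the lowest numbers in the labels, had fewer genes with a read at equal depth than the other 6 libraries in all 5 tissues (12004 to 16120 genes, against 15009 to 17001 over the other libraries of all tissues). Without these 2 libraries per tissue, 53 of the 192 autophagy gene differences between genotypes changed sign, and the values without them are given beside several of the differences that moved with them. In these bulk samples, fewer cells of a type and less RNA per cell cannot be told apart.

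Promoter sequences from RefSeq (GRCm38.p6) were matched for 31 of the 39 genes and searched, over the 250 bases before the start and on both strands, for 4 motifs: CACGTG, the core that Tfeb family factors bind; the CLEAR element of lysosome genes, which is CACGTG with GT before and AC after it; the repeat unit of the p53 site; and a full p53 site of 2 such repeats 0 to 13 bases apart. CACGTG occurred before 4 of the 31 autophagy genes (Atg3, Atg5, Atg7 and Bnip3; 12.9%), and before 6.86% of all 27025 genes with a promoter sequence. The other 3 motifs occurred before none of the 31, and before 0.27%, 8.20% and 0.0666% of all genes. Absence from this window says nothing about sites elsewhere in a gene. The sequences of Bnip3, whose level varied most between tissues, and of Dram1, named for its induction after DNA damage, are shown from 5′ to 3′ on the gene's strand, with CACGTG in capitals. Bnip3 lies on the minus strand at chr7:138909507-138909756, and Dram1 on the minus strand at chr10:88357076-88357325, inside the longer span that GENCODE gives the gene.
Bnip3: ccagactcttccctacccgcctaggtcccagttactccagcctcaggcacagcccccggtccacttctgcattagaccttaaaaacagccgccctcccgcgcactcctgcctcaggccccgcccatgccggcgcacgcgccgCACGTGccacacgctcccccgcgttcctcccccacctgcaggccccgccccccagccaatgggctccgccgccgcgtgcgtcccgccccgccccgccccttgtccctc
Dram1: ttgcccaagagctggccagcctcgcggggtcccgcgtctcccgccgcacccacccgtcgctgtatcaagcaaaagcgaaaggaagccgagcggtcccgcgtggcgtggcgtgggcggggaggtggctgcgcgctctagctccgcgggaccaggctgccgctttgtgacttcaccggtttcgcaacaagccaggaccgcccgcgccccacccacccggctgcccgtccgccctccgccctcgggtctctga

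No autophagy gene passed the test between FMTg and Tg libraries in any tissue. The test was limma, applied to the log2 values as deposited and allowing the variance to follow the mean, at a Benjamini-Hochberg adjusted p below 0.05 over all genes tested in the tissue. It called 0 of 39 autophagy genes in pancreas and in kidney and 0 of 38 in ovary, heart and small intestine, where the share of all genes called was 0.446% in pancreas, 0.616% in kidney, 0% in ovary, 0.0190% in heart and 0% in small intestine. With voom on the recovered reads the count of autophagy genes was also 0 in each tissue. At an unadjusted p below 0.05 the counts were 4, 2, 3, 5 and 1 in the order pancreas, kidney, ovary, heart and small intestine, and of all genes 1285, 1282, 1049, 998 and 388 were at that level. As shares these are 10.3, 5.13, 7.89, 13.2 and 2.63% of the autophagy genes and 8.42, 8.32, 6.36, 6.33 and 2.41% of all genes tested. The median log2 difference of the autophagy genes was -0.08, -0.04, -0.12, -0.14 and -0.09 in the same order, beside -0.05, -0.05, -0.02, -0.01 and -0.05 over all genes.

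The 95% confidence interval of the difference lay within 1 log2 unit of 0 in both directions for 29 of 39 autophagy genes in pancreas, 36 of 39 in kidney, 30 of 38 in ovary, 30 of 38 in heart and 31 of 38 in small intestine. Libraries of the 2 genotypes did not overlap for 4 genes in pancreas, 2 in kidney, 4 in ovary, 5 in heart and 1 in small intestine; over all genes this held for 9.73%, 8.73%, 5.80%, 6.92% and 2.88%. No autophagy gene was separated in 1 direction in 3 or more tissues, which held for 0.957% of all genes. The group mean of the log2 values was lower in FMTg in all 5 tissues for 8 of 38 autophagy genes (Atg10, Atg2b, Atg4c, Gabarapl2, Map1lc3a, Pik3c3, Uvrag and Wipi1), beside 12.9% of all genes, and higher in all 5 for Atg12 and Atg3, beside 7.28%. Without FMTg replicates 4 and 5 this held for Atg4c and Wipi1 of the 8 and for Atg3 of the 2. Other genes then joined: Atg13, Atg4d, Atg9a, Map1lc3b and Wipi2 were lower in all 5 tissues, and Atg9b was higher. So mainly the genes in the set changed, and the share of all genes without these replicates was not computed. For Atg10 in pancreas the mean of normalised reads was higher in FMTg (61.1) than in Tg (51.5), unlike the mean of the log2 values.

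Of 12 lists of cell type markers, 1 did not overlap between genotypes in each of 4 tissues, and their part in the gene differences was not tested. Macrophage markers, 8 of 8 in the table and none at 0, made up 0.0696 to 0.209% of reads in FMTg heart and 0.0397 to 0.0589% in Tg heart. Erythroid markers, 6 of 6 and none at 0, made up 0.0151 to 0.0389% of reads in FMTg pancreas and 0.00429 to 0.00732% in Tg pancreas. Adipocyte markers, 8 of 8 and none at 0, made up 0.0569 to 0.490% of reads in FMTg ovary and 0.0211 to 0.0410% in Tg ovary, and neutrophil markers, 7 of 7 and none at 0, made up 0.00103 to 0.00225% of reads in FMTg kidney and 0.00245 to 0.00628% in Tg kidney.

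**Figure D1:**
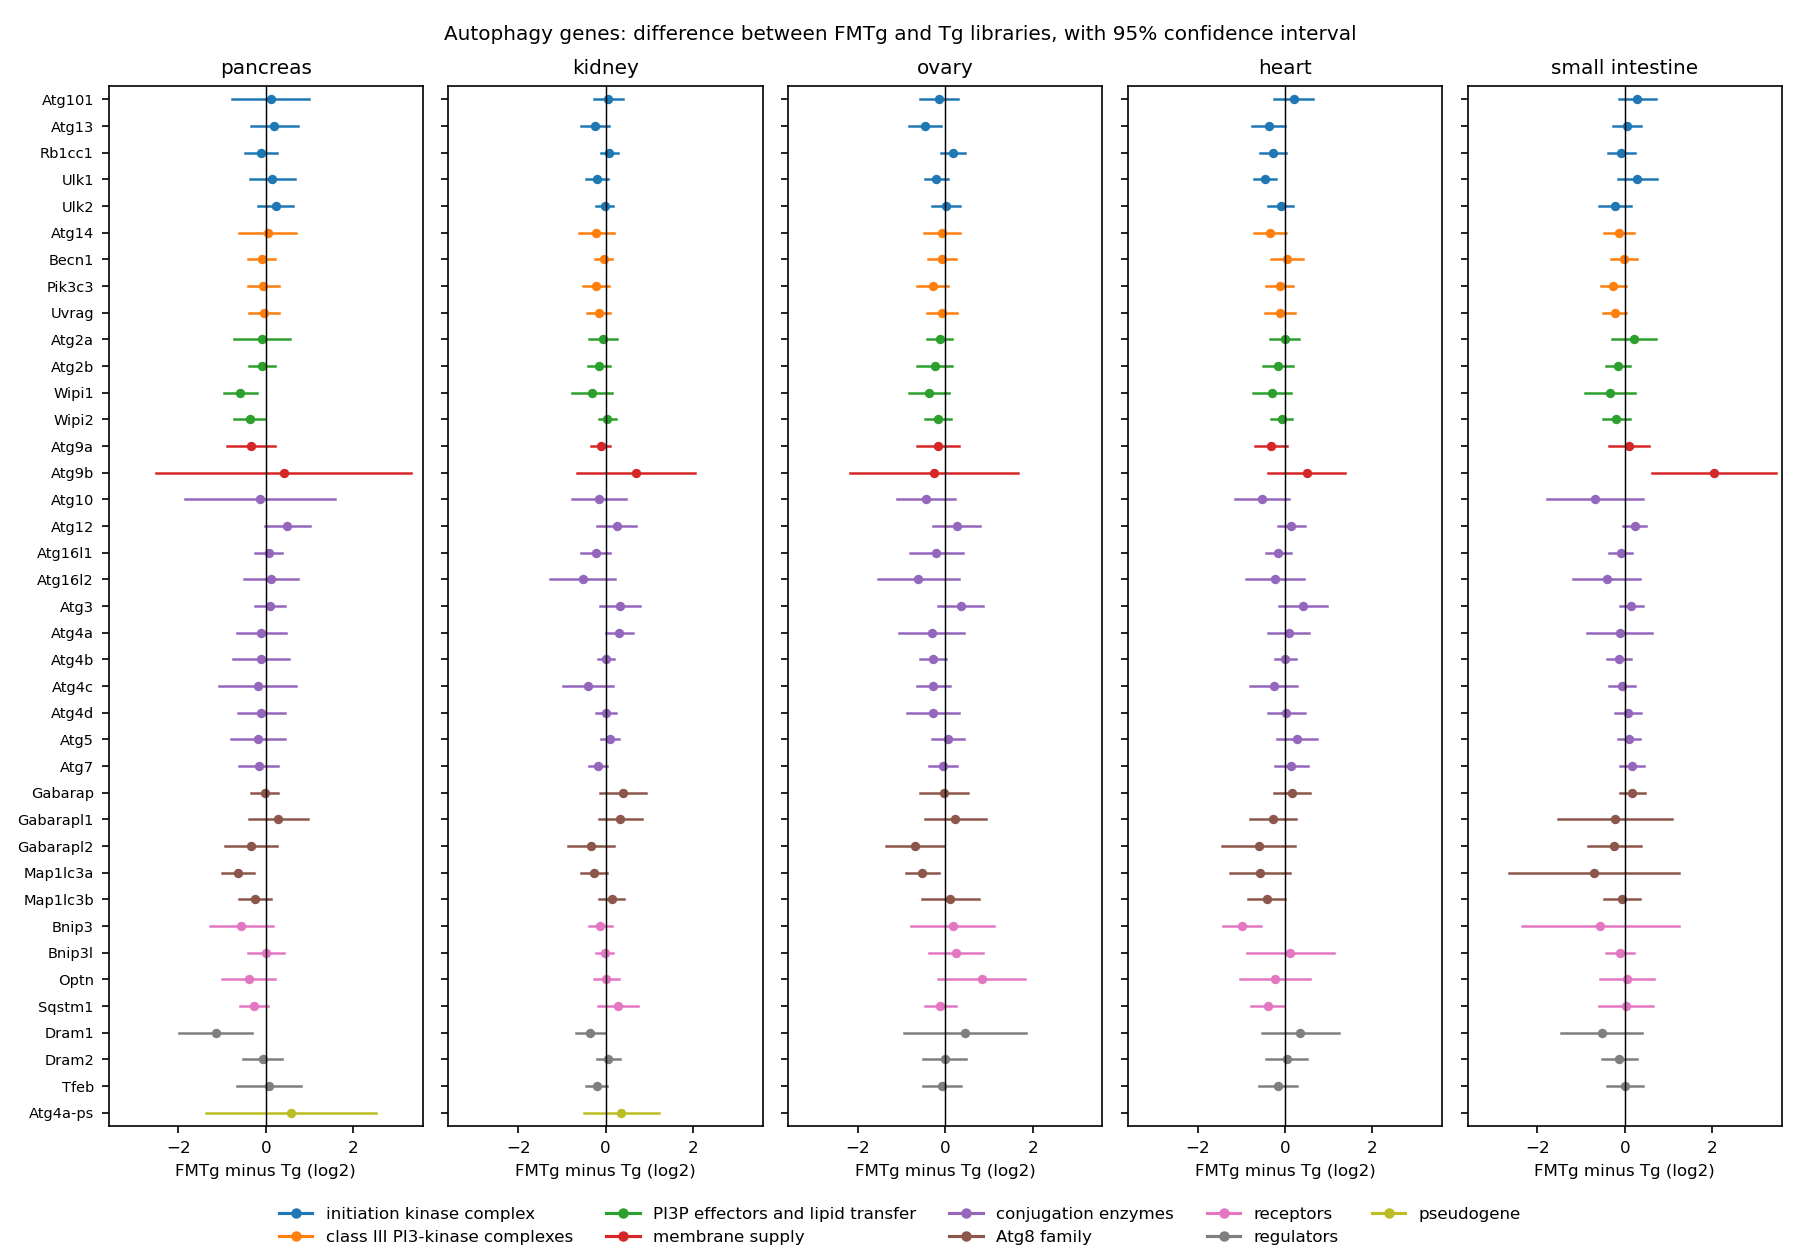
Difference between FMTg and Tg libraries (log2, x axis) of each autophagy gene (rows, coloured by role) in the 5 tissues, with 95% confidence intervals from limma as lines (5 FMTg and 3 Tg libraries per tissue). Most points lie near 0, the intervals of Atg9b, Atg10 and, in small intestine, Map1lc3a and Bnip3 are wide, and no gene passed the adjusted threshold.

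Of the initiation kinase complex, Ulk1 gave the clearest separation, in heart. Ulk1, the kinase that starts autophagosome formation, had 1492, 1361, 1646, 1401 and 1501 normalised reads in FMTg heart, against 1919.8, 2149.5 and 2047 in Tg heart. Normalised reads are reads divided by the library's size factor. All 5 FMTg heart libraries lay below the 3 Tg heart libraries, with a log2 difference of -0.46 ± 0.11 (SE; limma adjusted p = 0.641). In ovary the libraries were separated the same way but closer together, with 801, 866, 701, 799 and 784 normalised reads in FMTg ovary, against 913, 883 and 939 in Tg ovary, and a log2 difference of -0.21 ± 0.11 (SE; limma adjusted p = 0.828). In small intestine the Ulk1 mean was higher in FMTg, by 0.28 ± 0.20 and by 0.06 ± 0.13 without FMTg replicates 4 and 5, and in pancreas FMTg replicate 4 held 2366 normalised reads while the other 4 FMTg libraries held 1175 to 1401. The related kinase Ulk2 overlapped between genotypes in every tissue, with differences from -0.22 in small intestine to 0.23 in pancreas. Atg13, which links the kinases to the scaffold Rb1cc1, had 388, 452, 416, 329.9 and 308 normalised reads in FMTg ovary, against 559, 498 and 502 in Tg ovary, so that all FMTg ovary libraries were below the Tg ones (log2 difference -0.46 ± 0.16, SE; limma adjusted p = 0.635). Rb1cc1 itself was separated in heart (-0.27 ± 0.13), and Atg101, which stabilises Atg13, in no tissue.

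The differences of the class III PI3-kinase genes ran from -0.35 (Atg14 in heart) to 0.05 (Atg14 in pancreas). Becn1, the scaffold of the lipid kinase complex, had 1414, 1546, 1431, 1625 and 1466 normalised reads in FMTg kidney, against 1563, 1449 and 1605 in Tg kidney, and its differences ran from -0.10 in pancreas to 0.04 in heart. Pik3c3, the catalytic subunit, was among the 3 autophagy genes of smallest p in small intestine, with 670.5, 737, 649, 608 and 551 normalised reads in FMTg small intestine, against 748, 838 and 726 in Tg small intestine; FMTg replicate 2 overlapped the Tg libraries and the result was a log2 difference of -0.26 ± 0.13 (SE; limma adjusted p = 0.99). Without FMTg replicates 4 and 5 it was -0.17 ± 0.10. Atg14, which directs the complex to autophagosome formation, was separated in heart only, with 256, 264, 289.5, 209.8 and 219 normalised reads in FMTg heart, against 302, 331 and 310.2 in Tg heart and a log2 difference of -0.35 ± 0.16 (SE; limma adjusted p = 0.760). Over the 5 tissues, Uvrag, a subunit of the complex on endosomes, ranged from -0.23 to -0.04.

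Among the PI3P effectors, Wipi1, which binds PI3P on the growing membrane, differed most in pancreas. It had 855, 793, 712, 609.9 and 684 normalised reads in FMTg pancreas, against 929.5, 1155 and 1207 in Tg pancreas, and every FMTg pancreas library was below every Tg pancreas library, with a log2 difference of -0.58 ± 0.17 (SE; limma adjusted p = 0.283). In the other 4 tissues the Wipi1 difference was between -0.37 (ovary) and -0.29 (heart), with overlapping libraries, and between -0.34 (ovary) and -0.02 (small intestine) without FMTg replicates 4 and 5. Wipi2, its relative that recruits Atg16l1, differed by -0.36 ± 0.16 in pancreas, and the lipid transfer proteins Atg2a and Atg2b stayed between -0.24 and 0.21 in all tissues.

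The Atg9 proteins are the transmembrane carriers that supply early autophagosome membrane. Atg9b had 37.1, 40.2, 83.9, 173 and 187 normalised reads in FMTg small intestine, against 21.6, 6.0 and 28.6 in Tg small intestine. The 5 FMTg small intestine libraries were all above the 3 Tg ones, FMTg replicates 4 and 5 most of all, and the result was a log2 difference of 2.04 ± 0.62 (SE; limma adjusted p = 0.99); it was 0.83 when libraries were weighted by their estimated quality and 1.35 ± 0.52 without FMTg replicates 4 and 5. In pancreas Atg9b had 149.8, 143, 179.7, 0 and 143 normalised reads in FMTg pancreas, against 51.3, 20.6 and 100.4 in Tg pancreas, with no read in FMTg replicate 4 and the other 4 FMTg libraries above all Tg libraries. Exons of Atg9b overlap those of Nos3 on the opposite strand, and the strand setting of the counting is not given in the sources used here, so reads of the 2 genes cannot be told apart where they overlap. The same limit holds for 9 other autophagy genes, with the overlapping gene in brackets: Atg16l2 (Fchsd2), Atg2b (Gskip), Atg4a-ps (Syt6), Atg4d (Kri1), Atg9a (Ankzf1), Becn1 (Cntd1), Dram2 (Cept1), Map1lc3b (Zcchc14) and Sqstm1 (Mrnip). Atg9a, the widely expressed member, overlapped between genotypes in every tissue, with differences from -0.34 in pancreas to 0.10 in small intestine.

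The 11 conjugation enzymes had medians between -0.28 in ovary and 0.03 in heart. Atg12, a ubiquitin-like protein that is joined to Atg5, had 341, 338, 542, 407 and 509.7 normalised reads in FMTg pancreas, against 293, 309 and 285 in Tg pancreas. All FMTg pancreas libraries lay above the Tg ones, with a log2 difference of 0.50 ± 0.23 (SE; limma adjusted p = 0.613). In small intestine it had 664, 730.3, 610.0, 738 and 759 normalised reads in FMTg small intestine, against 625, 588 and 574 in Tg small intestine, where FMTg replicate 3 was within the Tg range (log2 difference 0.23 ± 0.11, SE; limma adjusted p = 0.99). Atg4a, a protease that trims Atg8 proteins, had 400.5, 509, 439, 454 and 382 normalised reads in FMTg kidney, against 358, 294 and 398 in Tg kidney, with 1 Tg library inside the FMTg range and a log2 difference of 0.32 ± 0.14 (SE; limma adjusted p = 0.564). Its pseudogene Atg4a-ps held 0 to 30.8 normalised reads per library in all tissues, and reads could be split between the copies. Atg4b, the main protease of this group, was separated in ovary (-0.28 ± 0.13). In kidney, Atg5 was higher (0.11 ± 0.09) and Atg7, the activating enzyme of both systems, lower (-0.17 ± 0.09) in all FMTg libraries. Atg3, which hands Atg8 proteins to the lipid, differed by 0.10 to 0.42 with overlapping libraries in each tissue.

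Of the Atg8 family, the proteins joined to autophagosome lipids, Map1lc3a was lower in all FMTg libraries of 2 tissues. In pancreas it had 684, 682, 508, 567 and 509.7 normalised reads in FMTg pancreas, against 880.3, 928 and 925 in Tg pancreas, with a log2 difference of -0.63 ± 0.17 (SE; limma adjusted p = 0.224). Library weighting made this the only autophagy gene called in a single tissue under any alternative, at -0.48 and a limma adjusted p of 0.0403; its adjusted p ran from 0.0403 to 0.853 over the alternatives. In ovary Map1lc3a had 568, 527, 524, 544 and 416 normalised reads in FMTg ovary, against 716, 622 and 924 in Tg ovary, and again no FMTg library reached the Tg range (log2 difference -0.53 ± 0.17, SE; limma adjusted p = 0.551). In kidney the 2 genotypes overlapped in 1 Tg library (log2 difference -0.26 ± 0.13, SE; limma adjusted p = 0.564), and the difference was -0.14 ± 0.10 without FMTg replicates 4 and 5. In small intestine Map1lc3a spread widely, from 31.2 to 427 normalised reads in FMTg small intestine and 139 to 619 in Tg small intestine. Tg replicate 1 was the highest of the 3 Tg intestine libraries there, at 619, and was also the highest for Bnip3, Gabarapl1 and Sqstm1. Enterocyte markers, with 8 of 8 in the table and none at 0, summed to 1.34% of reads in that library and to 2.23 and 2.30% in the other 2. The same library held 0.530% cardiomyocyte markers, against 0.00262 and 0.0705% in the other 2, and 0.351% proximal tubule markers, against 0.00815 and 0.0686%, with 8 of 8 markers of each list in the table and none at 0. Their part in these values was not tested. Map1lc3b, the family member most used to count autophagosomes, had 3757, 2934, 3171, 4134 and 4537 normalised reads in FMTg heart, against 4084, 5262 and 5449 in Tg heart, with FMTg replicates 4 and 5 inside the Tg range and a log2 difference of -0.42 ± 0.18 (SE; limma adjusted p = 0.760). Gabarapl2 had 279, 294, 376, 184 and 150.4 normalised reads in FMTg ovary, against 462, 379.9 and 362 in Tg ovary, with 1 FMTg library inside the Tg range and a log2 difference of -0.70 ± 0.29 (SE; limma adjusted p = 0.760). Without FMTg replicates 4 and 5 it was -0.34 ± 0.17. Gabarap and Gabarapl1 overlapped between genotypes in every tissue.

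Of the receptors, Bnip3 had the smallest p of any autophagy gene. Bnip3, a receptor on mitochondria that is known to be induced by low oxygen, had 6778, 4633, 6327, 6423 and 6266 normalised reads in FMTg heart, against 9526, 12640.1 and 13910.1 in Tg heart. Every FMTg heart library was below every Tg heart library, and FMTg replicate 2 was lowest, with a log2 difference of -0.98 ± 0.19 (SE; limma adjusted p = 0.495). Over the alternatives the adjusted p of Bnip3 in heart ran from 0.0523 to 1.00. Cardiomyocyte markers, 8 of 8 in the table and none at 0, were lowest in the same FMTg replicate 2, at 1.95% of reads. They made up 3.53 to 5.44% in the other 4 FMTg heart libraries and 3.96 to 4.61% in Tg heart, and their part in the Bnip3 values was not tested. Without FMTg replicate 2 the Bnip3 difference was -0.88 ± 0.15 (SE). Macrophage markers, higher in every FMTg heart library as given above, moved with the difference, and their part was not tested. Without FMTg replicates 4 and 5 the Bnip3 difference was -1.02 ± 0.23 (SE). In the other tissues Bnip3 overlapped between genotypes; its difference was -0.11 ± 0.12 in kidney and -0.56 ± 0.78 in small intestine, where it was 0.19 ± 0.77 without FMTg replicates 4 and 5.

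Sqstm1, which binds ubiquitinated cargo and is itself degraded with it, had 8729, 8774, 8104, 7458 and 8637 normalised reads in FMTg heart, against 8873, 12319 and 12145 in Tg heart. The FMTg heart libraries were all below the Tg ones, though Tg replicate 1, at 8873, lay close to the highest FMTg library, at 8774 (log2 difference -0.40 ± 0.17, SE; limma adjusted p = 0.760). In kidney the Sqstm1 mean was higher in FMTg (0.29 ± 0.20), with FMTg replicates 4 and 5 the highest libraries and a difference of 0.05 ± 0.13 without them. Bnip3l, the relative of Bnip3 that clears mitochondria from maturing red cells, differed little in kidney (-0.02 ± 0.09) and spread widely in heart, from 1076 to 4021 normalised reads in FMTg heart and 1152 to 2764 in Tg heart. FMTg heart replicate 2 was the highest for Bnip3l at 4021, and it also held the most reads of the 6 erythroid markers, 2.15% against 0.136 to 0.622% in the other FMTg hearts and 0.20 to 1.35% in Tg hearts; none of the 6 was at 0, and their part in the Bnip3l value was not tested. Optn, a receptor for mitochondria and bacteria, had 267, 203, 878, 259.6 and 301 normalised reads in FMTg ovary, against 201, 234 and 126 in Tg ovary, where FMTg replicate 3 stood far above the rest. The same library held 1.05% enterocyte markers, 8 of 8 in the table and none at 0, and the other ovary libraries 0.0196 to 0.101%; their part in the Optn value was not tested.

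Of the regulators, Dram1, a lysosomal membrane protein, had means in different directions in different tissues. In pancreas it had 481, 493, 335, 154 and 220.5 normalised reads in FMTg pancreas, against 673, 647 and 740.3 in Tg pancreas. All 5 FMTg pancreas libraries were below the Tg ones, FMTg replicates 4 and 5 lowest, with a log2 difference of -1.14 ± 0.37 (SE; limma adjusted p = 0.387). Without those 2 libraries the difference was -0.67 ± 0.17, at a limma adjusted p of 0.170. In kidney Dram1 had 133, 135, 169, 178 and 140.4 normalised reads in FMTg kidney, against 213, 197 and 170.0 in Tg kidney, with 1 FMTg library inside the Tg range (log2 difference -0.34 ± 0.15, SE; limma adjusted p = 0.564). In ovary FMTg replicates 4 and 5 were the highest libraries: the values were 193, 194, 171, 684 and 1039 normalised reads in FMTg ovary, against 343, 166 and 271 in Tg ovary (0.44 ± 0.62). Without replicates 4 and 5 the sign turned, to -0.42 ± 0.27. The highest Tg ovary library was replicate 1, at 343. Acinar markers made up 20.1% of its reads, 0.104 and 0.376% in the other 2 Tg ovary libraries, and 0.000880 to 4.16% in FMTg ovary. In FMTg ovary replicates 4 and 5 adipocyte markers made up 0.381 and 0.490% of reads, against at most 0.0919% in the other 6. Macrophage markers made up 0.0721 and 0.104% there, against at most 0.0488%. The part of these markers in the Dram1 values was not tested. In heart the mean was 0.35 ± 0.39 and in small intestine -0.53 ± 0.41, with overlapping libraries in both, and the test of a difference between tissues gave an adjusted p of 0.787 in limma. Tfeb, the transcription factor of lysosome and autophagy genes, had 412, 376, 365, 383 and 373 normalised reads in FMTg kidney, against 412, 506 and 411 in Tg kidney; the FMTg kidney libraries lay below the Tg ones except replicate 1, and the result was a log2 difference of -0.21 ± 0.11 (SE; limma adjusted p = 0.564). In the other 4 tissues Tfeb differed by -0.16 to 0.08, and Dram2, the homologue of Dram1, by -0.12 to 0.06 in the 5 tissues.

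**Figure D2:**
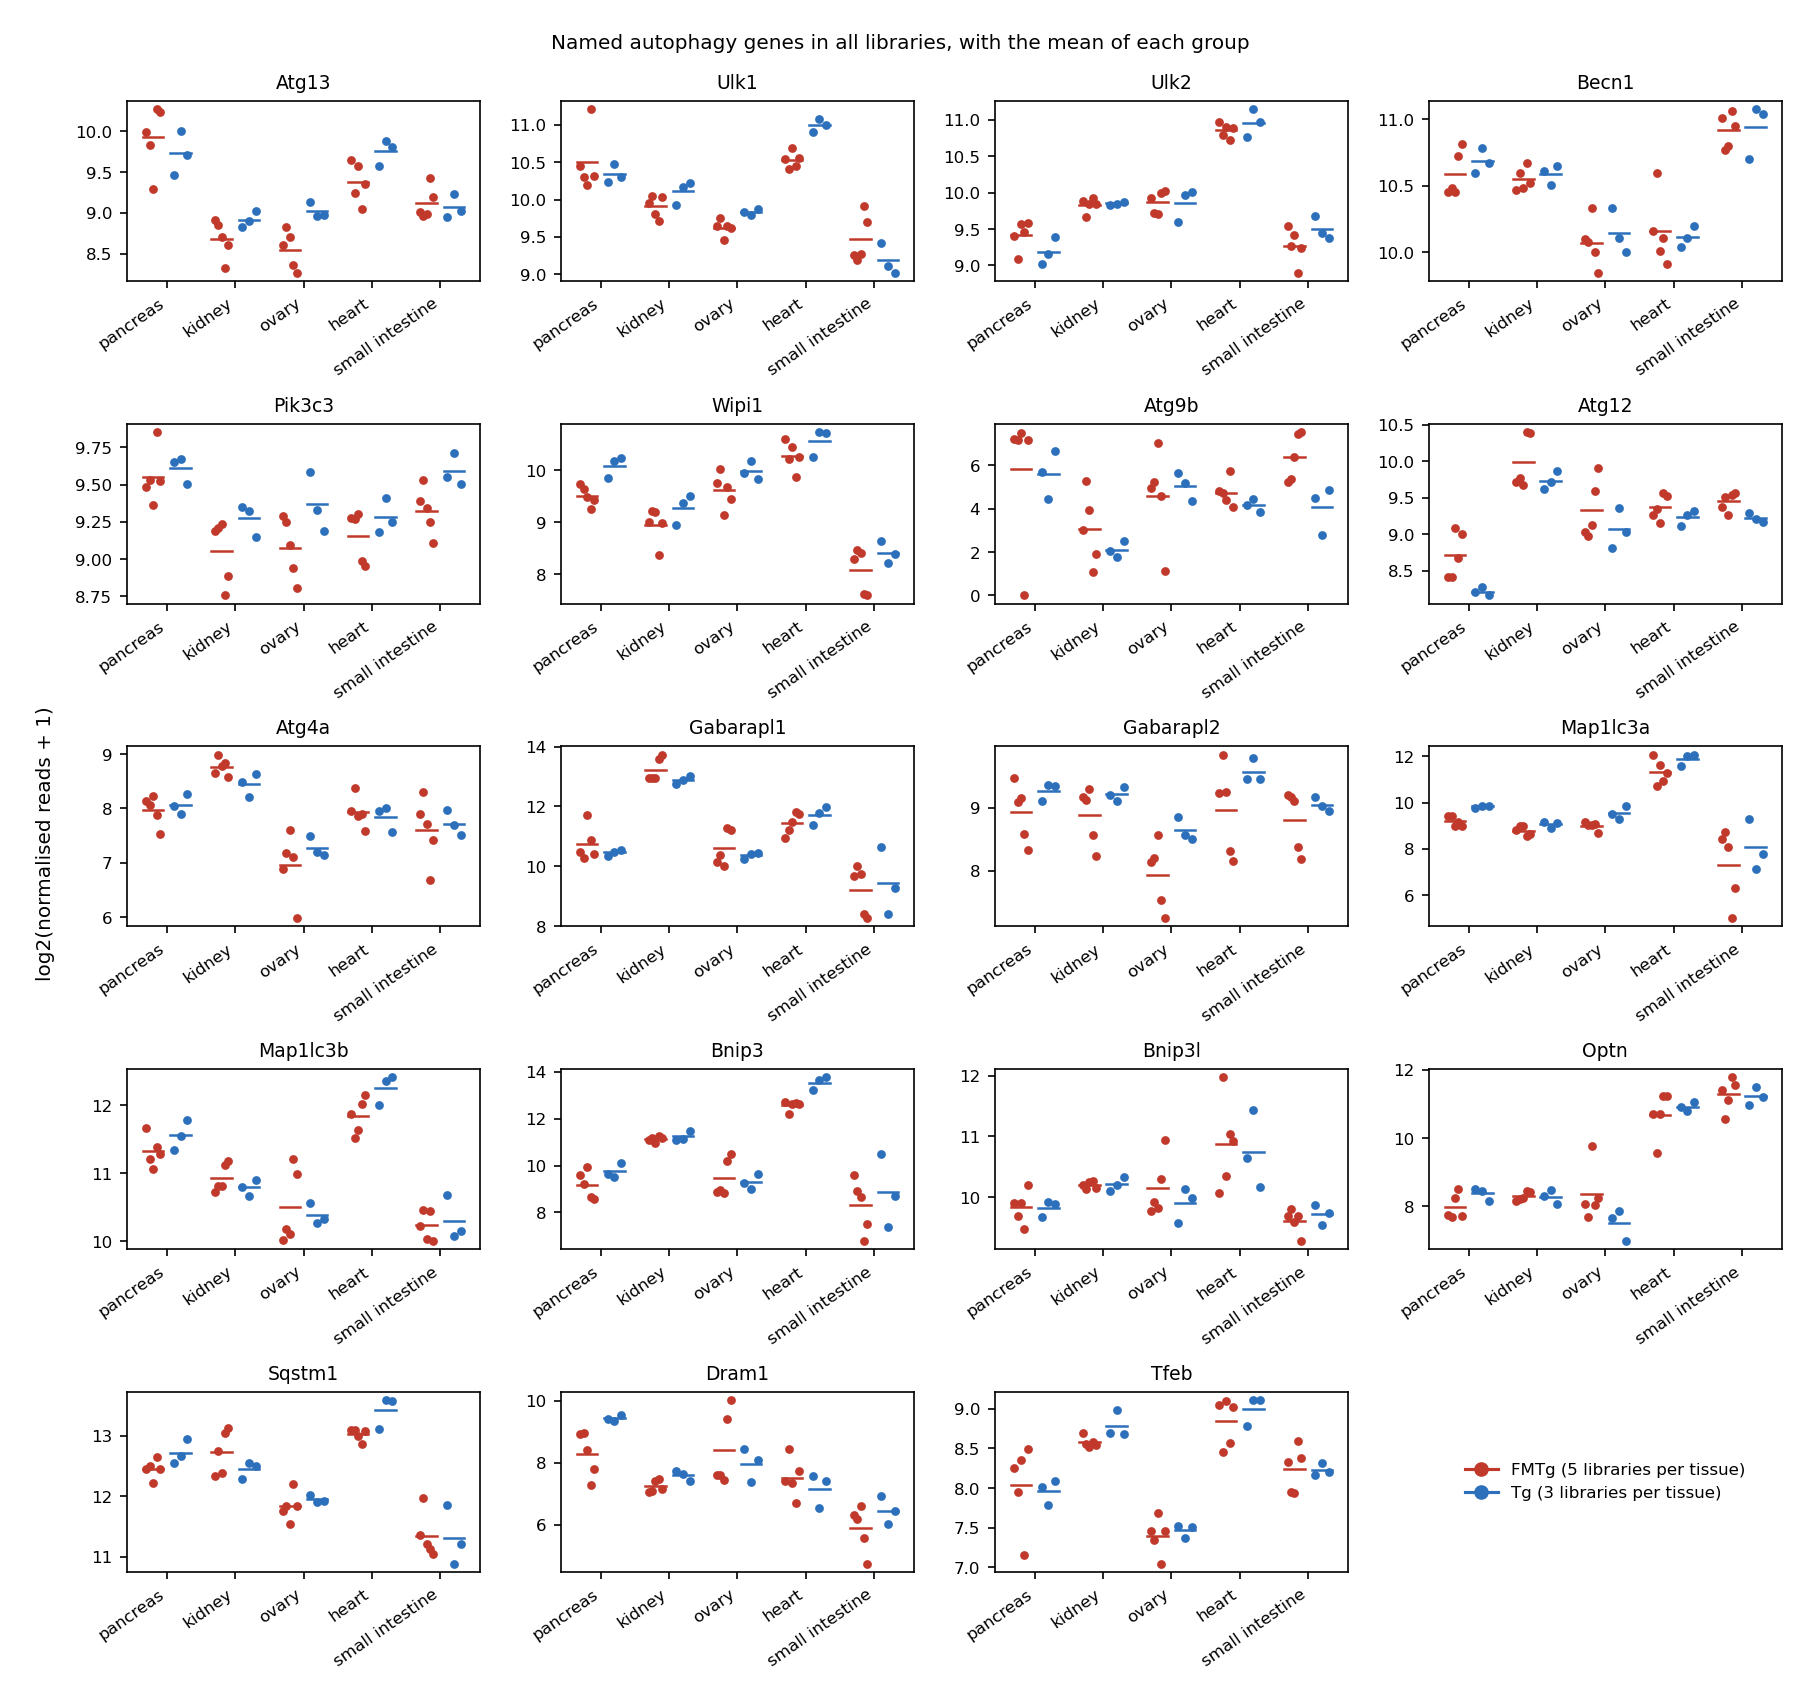
Expression of 19 named autophagy genes in all 40 libraries (log2 of normalised reads + 1, y axis; points are libraries and lines group means, FMTg left of Tg in each tissue). The groups are set apart for Bnip3 and Ulk1 in heart and for Dram1, Map1lc3a and Wipi1 in pancreas, and overlap in most other panels; differences between tissues exceed those between genotypes for Bnip3, Optn and Gabarapl1.

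A fit of all 40 libraries with the mouse as a random block gave the genotype difference averaged over the 5 tissues. It called 0 of 38 autophagy genes, beside 118 of 16185 genes (0.729%). The smallest p was that of Wipi1, whose mean difference was -0.41 ± 0.13 (SE; limma adjusted p = 0.179); it was lower on average in FMTg in 5 of 5 tissues. Gabarapl2 followed with -0.53 ± 0.17 (SE; limma adjusted p = 0.199) and Atg12 with 0.32 ± 0.11 (SE; limma adjusted p = 0.250). Without the mouse block Wipi1 was called, at -0.38 and a limma adjusted p of 0.0262, and without FMTg replicates 4 and 5 Atg9b was, at 1.06 and 0.0265. Without those replicates the mean differences of Wipi1 and Atg12 were -0.22 ± 0.09 and 0.11 ± 0.07 (SE). The test of whether the difference varies between tissues also called 0 of 38, beside 0.192% of all genes. Ulk1 had the smallest p of the group (limma adjusted p = 0.408). In earlier work on these data this test called some genes in simulated data without change, so its results are only described.

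FMTg replicates 4 and 5 carried a pattern of their own for some autophagy genes. These libraries came from 3 pairs of mice: 1 pair gave pancreas and small intestine, 1 gave kidney and heart and 1 gave ovary, so the 5 tissues are not 5 independent pairs. The genes were singled out after their values were seen. Gabarapl2 was lower in both than in the other 6 libraries in all 5 tissues, which held for 1.34% of all genes. In pancreas it had 709.5, 541, 569, 382 and 321 normalised reads in FMTg pancreas, against 548, 660.1 and 649 in Tg pancreas, in kidney 578, 555, 629, 378 and 299 normalised reads in FMTg kidney, against 588, 552 and 645 in Tg kidney, and in heart 602, 919.6, 608, 317 and 284 normalised reads in FMTg heart, against 701, 888 and 704 in Tg heart. FMTg replicates 1 to 3 overlapped the Tg libraries in these 3 tissues. Set against the Tg mean, Gabarapl2 differed by -1.32 to -0.76 in replicates 4 and 5 and by -0.34 to 0.11 in replicates 1 to 3. Without replicates 4 and 5 its mean difference over tissues was -0.08 ± 0.07 (SE).

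Uvrag, Atg16l2, Atg10 and Pik3c3 were lower in both of these libraries in 4 tissues. With Gabarapl2 these are 5 of 38 genes, beside 5.98% of all genes at 4 or more tissues. Atg16l2, a relative of Atg16l1, had 258, 252, 219, 108 and 97.4 normalised reads in FMTg kidney, against 239, 269.5 and 244 in Tg kidney, and replicates 4 and 5 lay below every other kidney library by a wide margin. Atg10, the enzyme that carries Atg12 to Atg5, had 76.9, 75.4, 113, 6.2 and 34.4 normalised reads in FMTg pancreas, against 55.4, 59.3 and 39.7 in Tg pancreas, with replicate 4 at 6.2. Atg101 and Atg12 were higher in both libraries in 4 tissues, 2 of 38 genes beside 4.67% of all genes, and no autophagy gene was higher in all 5, which held for 1.23% of genes. Atg101 had 261, 258, 228, 337 and 323 normalised reads in FMTg heart, against 221, 216 and 297 in Tg heart. Fewer genes had a read at equal depth in these libraries, as given above, and the part of that in these values was not tested.

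**Figure D3:**
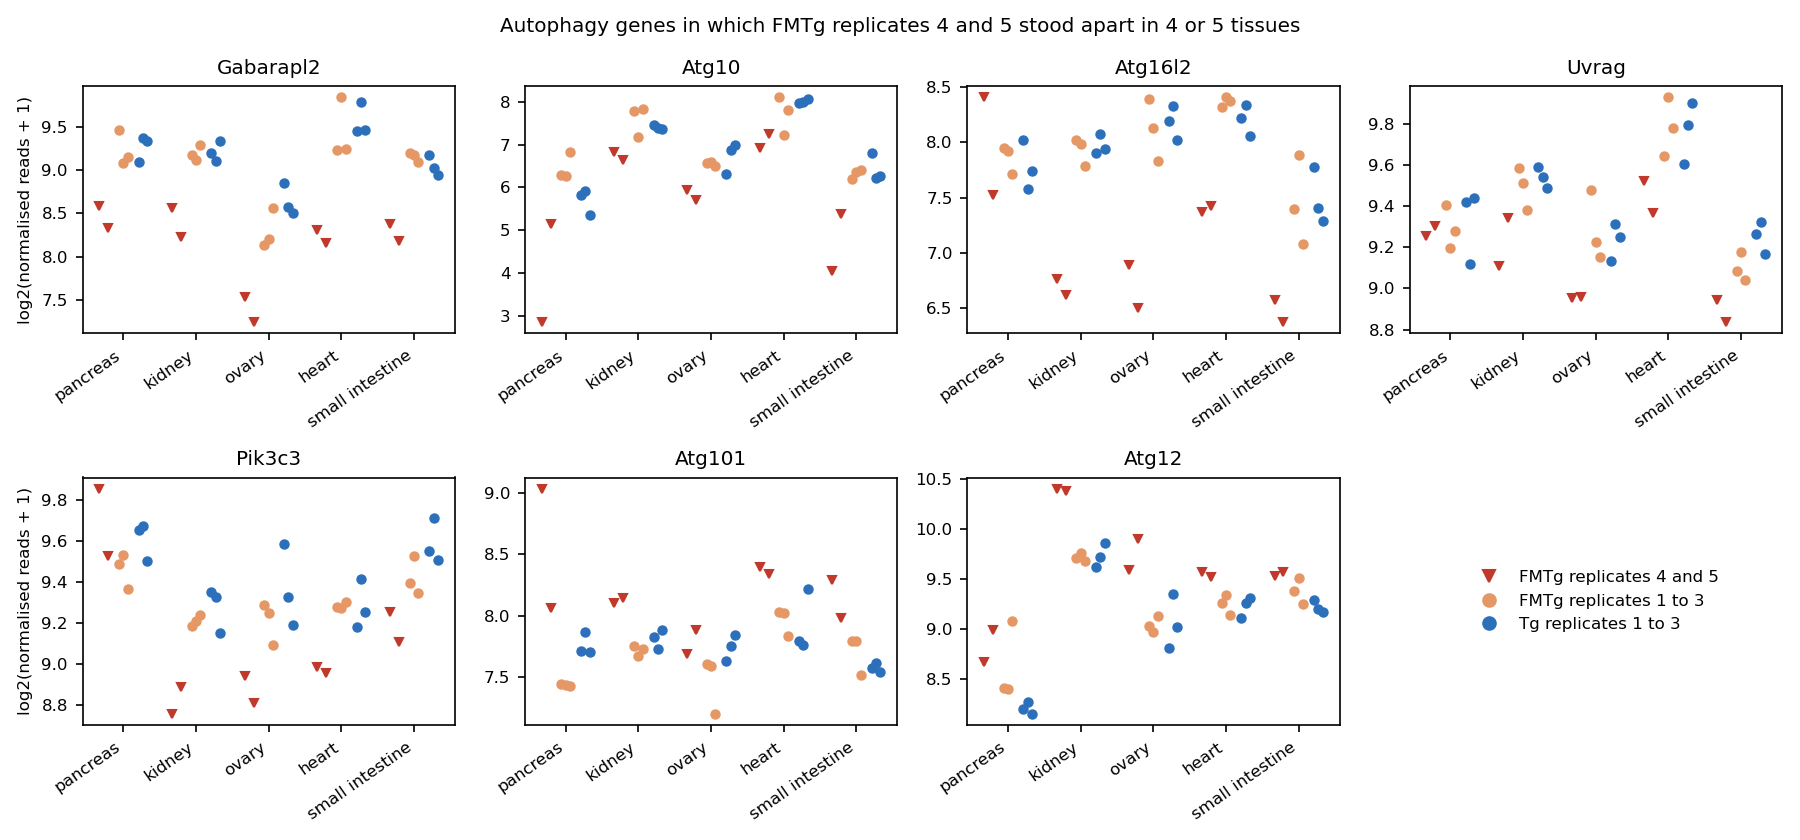
Level of 7 autophagy genes (log2 of normalised reads + 1, y axis) in FMTg replicates 4 and 5 (triangles), FMTg replicates 1 to 3 and Tg replicates 1 to 3 (circles) of each tissue. Gabarapl2 was lower in the triangles in all 5 tissues; for Atg10, Atg16l2, Uvrag and Pik3c3 they were the lowest, and for Atg101 and Atg12 the highest, in 4 tissues.

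Between tissues, unlike between genotypes, autophagy genes were called. In Tg mice, each tissue was set against the mean of the other 4 (limma on the 15 Tg libraries, called at an adjusted p below 0.05 and a difference of at least 1 log2 unit). Heart had 9 autophagy genes called higher and 0 lower of 38 (23.7% higher), while 13.7% of all genes were called higher and 15.2% lower. These were Bnip3 (3.74 ± 0.43 log2, SE), Map1lc3a (2.76 ± 0.30), Optn (2.06 ± 0.16), Map1lc3b (1.49 ± 0.13), Atg10 (1.39 ± 0.16), Ulk2 (1.35 ± 0.11), Sqstm1 (1.32 ± 0.17), Wipi1 (1.12 ± 0.14) and Ulk1 (1.12 ± 0.09). The group held kinases, lipid-joined proteins and 3 of the 4 receptors. Bnip3 averaged 5309 (4206 to 6141) normalised reads per kb of exon in Tg heart, as mean and range of 3 libraries, next 1079.9 (972 to 1268) in kidney, 385 (323 to 484) in pancreas, 300.2 (72.0 to 644) in small intestine and 282 (222 to 353) in ovary. Heart and kidney stood apart from the rest, and the last 3 overlapped.

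Small intestine had 1 autophagy gene called higher and 7 lower of 38, beside 16.1% and 10.8% of all genes. The one higher was Optn (2.44 ± 0.16), with 647 (537 to 776) normalised reads per kb, and its range overlapped that of heart, 519 (471 to 572); pancreas, kidney and ovary held at most 96.8 in every library. The 7 lower were Bnip3 (-2.08 ± 0.43), Map1lc3a (-2.0 ± 0.30), Gabarapl1 (-1.91 ± 0.31), Wipi1 (-1.55 ± 0.14), Dram1 (-1.53 ± 0.24), Sqstm1 (-1.32 ± 0.17) and Ulk1 (-1.13 ± 0.09). For Sqstm1 and Ulk1 the order was heart, pancreas, kidney, ovary and small intestine, and no 2 neighbours in that order overlapped. The small intestine range of Gabarapl1, 166 to 798 per kb, spanned those of pancreas and ovary. That of Map1lc3a, 118 to 524, spanned that of kidney, and that of Dram1, 21.0 to 39.2, overlapped heart. Tg replicate 1 was the highest intestine library for each, and the part of its cardiomyocyte and proximal tubule markers, given above, was not tested.

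Pancreas had 2 autophagy genes called higher, Dram1 (2.09 ± 0.24) and Atg9b (1.44 ± 0.40), and 3 lower, Atg10 (-1.37 ± 0.16), Optn (-1.10 ± 0.16) and Atg12 (-1.08 ± 0.10), beside 9.27% and 19.5% of all genes. With each library centred on its median gene the median over all genes in this contrast was 0.00288 in place of -0.23, the share of calls that were higher was 45.4% in place of 32.2%, and of the lower autophagy genes Atg10 alone stayed called. Dram1 averaged 226 (213 to 243) normalised reads per kb in Tg pancreas and 85.4 (54.6 to 113) in the next tissue, ovary, which overlapped kidney at 63.4 (55.8 to 69.8). The 113 was Tg ovary replicate 1, in which acinar markers made up 20.1% of reads, and their part was not tested. Heart had 48.8 (29.9 to 61.6) and small intestine 29.4 (21.0 to 39.2). Kidney had Gabarapl1 higher (2.39 ± 0.31) and Atg9b (-1.93 ± 0.40) and Optn (-1.23 ± 0.16) lower, beside 12.4% and 16.4% of all genes. Atg9b was at 0.865 (0.603 to 1.2) per kb in Tg kidney and at 14.6 (5.23 to 25.4) in Tg pancreas. The pancreas range overlapped those of ovary (4.88 to 12.4), small intestine (1.52 to 7.24) and heart (3.35 to 5.38), and kidney alone stood apart. The overlap with Nos3 given above limits these low values too. Ovary had 0 higher and 4 lower, Optn (-2.17 ± 0.16), Bnip3 (-1.55 ± 0.43), Dram2 (-1.03 ± 0.09) and Tfeb (-1.0 ± 0.10), beside 15.2% and 7.05% of all genes. Tg ovary replicate 1 is the library rich in acinar transcripts, and without replicate 1 of every Tg tissue the ovary count was 6, all lower, with Atg9a and Atg4d added. Without replicate 3 it was 2, Optn and Tfeb.

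Heart held the highest Tg level of 18 of the 39 genes, pancreas of 11, kidney of 6, small intestine of 4 and ovary of 0. The same counts over all genes were not computed, so these describe the 39 genes only. They include ranks with overlapping libraries, in heart those of Atg101, Atg13, Atg16l2, Bnip3l and Tfeb. Such ranks also occurred in the other tissues, among them Atg14 in kidney and Atg4a-ps, which had few reads. The range of Tg tissue means was under 1 log2 unit for 18 genes, 1 to 2 for 12 and 2 or more for 9, with a median of 1.02. Per kb, Sqstm1 was the highest autophagy gene in Tg pancreas and ovary, Gabarapl1 in kidney, Bnip3 in heart and Gabarap in small intestine. Pik3c3 was the most even gene across tissues by this measure, with a range of 0.33, followed by Atg101 at 0.34.

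**Figure D4:**
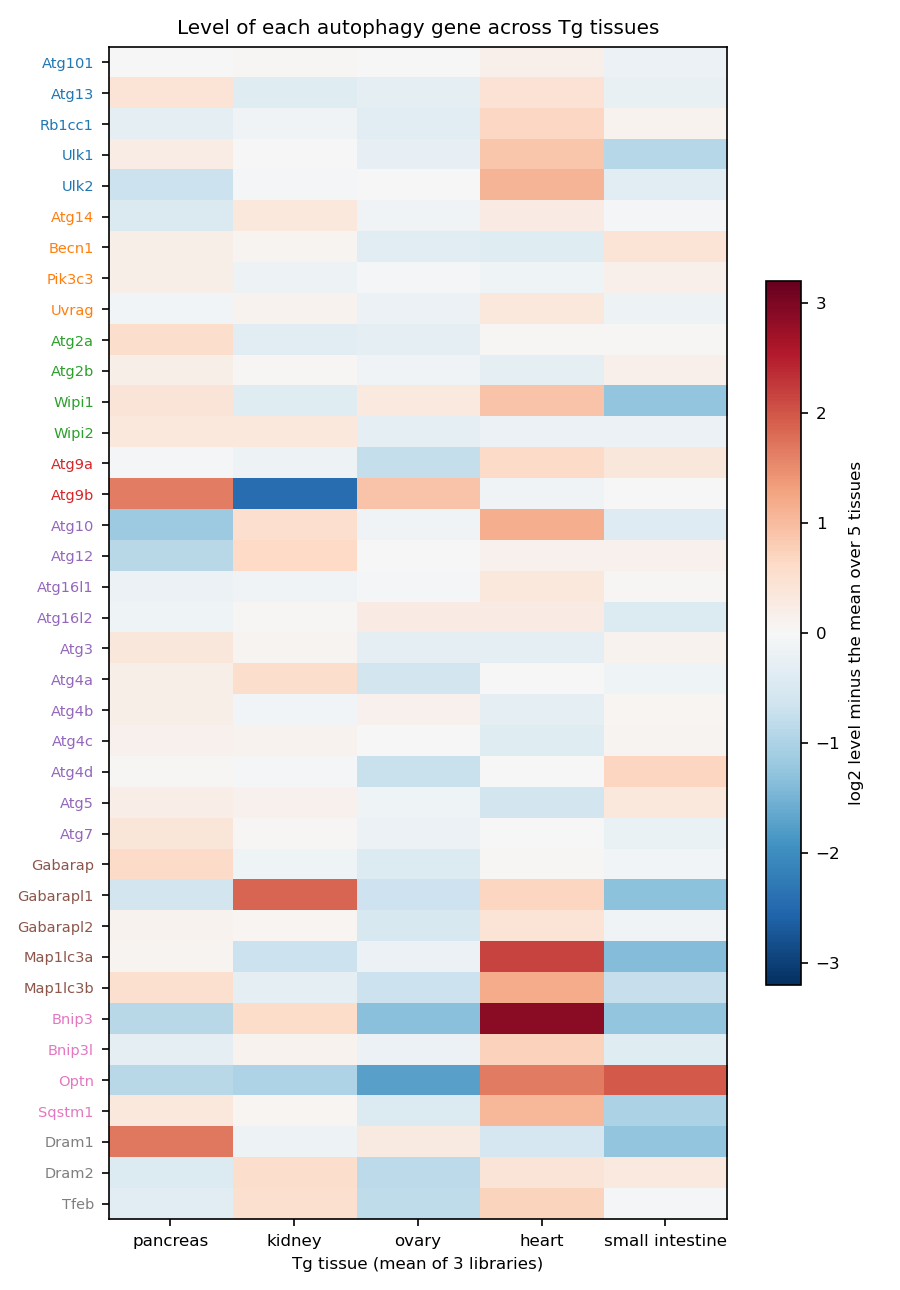
Level of 38 autophagy genes (rows) in the 5 Tg tissues (columns, mean of 3 libraries), as log2 normalised reads per kb minus the gene's mean over tissues; red is above and blue below that mean. Heart is above the mean for Bnip3, Map1lc3a, Optn and Sqstm1, kidney for Gabarapl1 and pancreas for Dram1 and Atg9b. For Atg9b the pancreas libraries overlapped those of ovary, heart and small intestine.

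By normalised reads per kb of exon, the Atg8 gene of highest level differed between tissues and, by the group means, was the same in FMTg and Tg. The order depends on the exon length used, the union of all annotated exons, 7517 bases for Map1lc3b and 1181 for Map1lc3a. By normalised reads without this division, Map1lc3b averaged 4932 in Tg heart and Map1lc3a 3847. As a share of the family's normalised reads per kb (mean ± SD, n = 5 FMTg and 3 Tg libraries), Gabarapl1 made up 66.3% ± 3.21 in FMTg kidney and 64.1% ± 2.98 in Tg kidney, and 14.1% ± 5.68 in FMTg small intestine and 16.6% ± 8.59 in Tg small intestine. Map1lc3a made up 37.9% ± 11.1 in FMTg heart and 44.8% ± 1.28 in Tg heart, and 5.47% ± 1.82 in FMTg kidney and 7.69% ± 0.792 in Tg kidney. Gabarap was the largest part elsewhere, with 61.9% ± 12 in FMTg small intestine and 54.9% ± 11.9 in Tg small intestine, and 49.8% ± 7.34 in FMTg pancreas and 47.9% ± 1.57 in Tg pancreas. In pancreas the Map1lc3a share was 12.8% ± 2.64 in FMTg pancreas and 18.8% ± 0.686 in Tg pancreas, and no FMTg library (9.99 to 16.4%) reached the Tg range (18.3 to 19.6%).

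**Figure D5:**
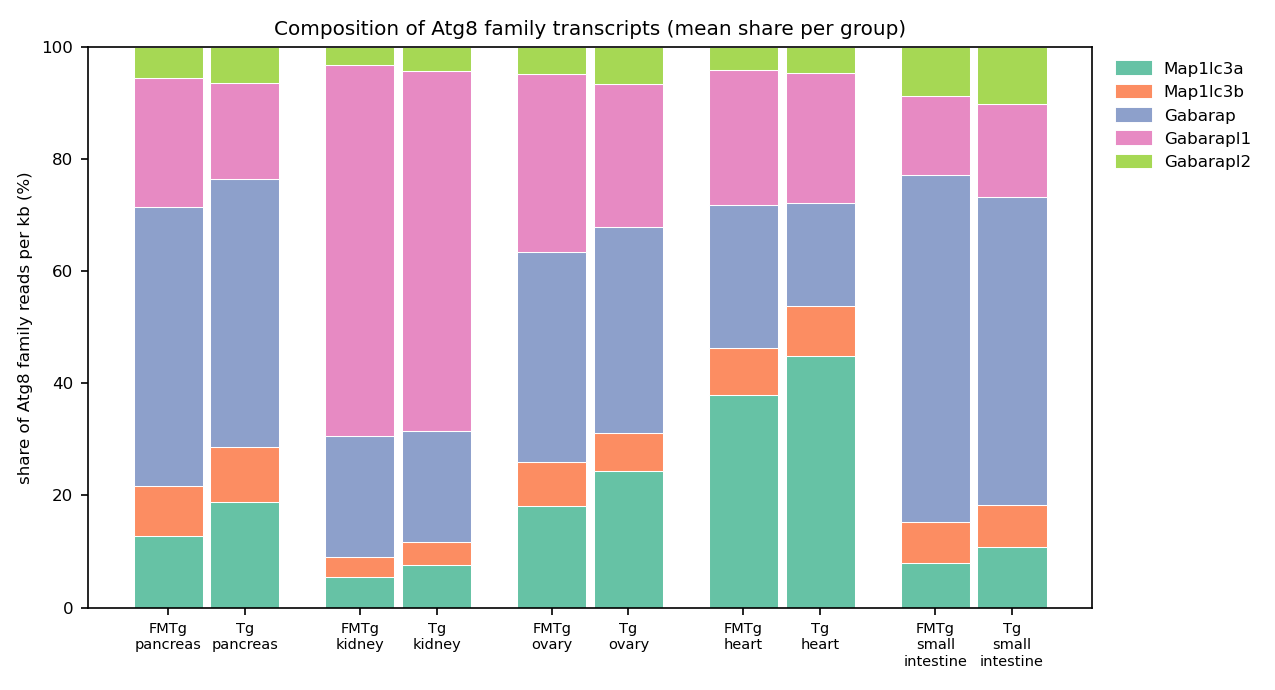
Mean share of each Atg8 family gene in the family's normalised reads per kb (y axis, %) for FMTg (left, 5 libraries) and Tg (right, 3 libraries) in each tissue. Gabarapl1 is the largest part in kidney, Map1lc3a in heart, and Gabarap in pancreas, ovary and small intestine.

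Further genes of the pathway were read from lists chosen by function, with earlier results of these data known. Of 31 other autophagy genes, among them Ambra1, Nbr1, Vmp1, Stx17 and Pink1, 0 were called in any tissue, with medians from -0.07 in heart to -0.02 in kidney. Of 26 lysosome genes, such as Lamp1, Ctsd and the proton pump subunit Atp6v1a, 0 were called in any tissue. Their medians were -0.01 in pancreas, 0.17 in kidney, -0.06 in ovary, 0.23 in heart and -0.14 in small intestine. Over all genes the medians were -0.05, -0.05, -0.02, -0.01 and -0.05 in the same order. The share of all genes called was 0.446, 0.616, 0, 0.0190 and 0% in that order, so both counts of 0 lie near that share.

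Of 27 upstream regulators, calls were made for 4 higher and 0 lower in pancreas, 3 higher and 0 lower in kidney, and 0 in ovary, heart and small intestine. Over all genes the share called was 0.446% in pancreas and 0.616% in kidney. The list holds known p53 targets and was chosen with earlier results of these data known, so its counts are only described. Trp53inp1, a p53 target whose protein binds Atg8 proteins, had 14556, 12566, 10926, 13442 and 14777 normalised reads in FMTg pancreas, against 1804, 1527 and 2172 in Tg pancreas, a log2 difference of 2.86 ± 0.16 (SE; limma adjusted p = 0.000175). In kidney it had 4617, 6575, 5377, 7688 and 6082 normalised reads in FMTg kidney, against 1107, 1075 and 1059 in Tg kidney, with 2.46 ± 0.16 (SE; limma adjusted p = 0.000101). Sesn2, a p53 target that restrains the mTORC1 kinase, differed by 1.56 ± 0.24 (SE; limma adjusted p = 0.0245) in pancreas and 1.07 ± 0.17 (SE; limma adjusted p = 0.0296) in kidney. Ddit4l, a relative of the mTORC1 inhibitor Ddit4, differed by 2.66 ± 0.40 (SE; limma adjusted p = 0.0245) in pancreas and 1.37 ± 0.13 (SE; limma adjusted p = 0.00150) in kidney, and the transcription factor Foxo3 by 1.11 ± 0.18 (SE; limma adjusted p = 0.0337) in pancreas alone. In all 15 ovary, heart and small intestine comparisons of Trp53inp1, Sesn2, Ddit4l, Foxo3 and Sesn1 no call was made. All of these genes but Sesn1 are ones called in pancreas or kidney. Several tissues came from the same mice, so these comparisons are not independent of those calls and are only described. Over all genes, the libraries of the 2 genotypes did not overlap, in either direction, for 5.80% in ovary, 6.92% in heart and 2.88% in small intestine. FMTg libraries were all above the Tg ones in 8 of the 15 comparisons: Trp53inp1 and Sesn2 in all 3 tissues, and Ddit4l in heart and small intestine. For example, Trp53inp1 had 3639, 6575, 5179, 3871 and 4056 normalised reads in FMTg ovary, against 2204, 2923 and 2510.2 in Tg ovary (0.85 ± 0.21, SE; limma adjusted p = 0.411), and Sesn2 had 329, 779, 457, 267 and 319.5 normalised reads in FMTg heart, against 119, 139 and 164 in Tg heart (1.48 ± 0.33, SE; limma adjusted p = 0.641).

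Over the 40 libraries, after the Tg mean of each tissue was subtracted, the genes most like Dram1 were Rap1b, Saa3, Fads3, Nap1l1 and Pdpn, with Pearson r from 0.777 to 0.795. The libraries share mice and tissues, so these values describe the set.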

How the data were processed

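RNA-seq of 40 libraries was used, 5 FMTg and 3 Tg in each of 5 tissues. Per the submitters' processing notes, reads were aligned with STAR 2.6.0b to GRCm38 and DESeq2 was used; the read counter, annotation, strand setting and gene filter are not given in the sources used here. The deposited log2 values were made by the authors with a variance-stabilising transformation of counts over all libraries together, which compresses differences of low genes. A gene without reads holds the lowest value, 1.65. Inverting the transformation gave whole reads for 100% of values (tolerance 0.01), and these reads divided by the library's size factor are the normalised reads printed.

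Differences were fitted with limma 3.58.1 in R 4.3.3, with a variance trend, per tissue over genes whose mean was at least 1 above the lowest value, with Benjamini-Hochberg adjustment over all of them. The fit of all libraries took the mouse as a random block (correlation 0.249), because 1 mouse gave several tissues. Replicate numbers name different mice in FMTg and Tg. The script was tested on simulated data. Values were computed in Python 3.11.15, and 18003 of 18024 gene IDs were matched to GENCODE M21.

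The autophagy genes, the other lists and the tests were chosen with earlier results of these data known. Per-library values are given for genes named for their role, the 3 of smallest p in each tissue and the 6 of widest Tg tissue range; other genes were named after their values were seen. Alternatives were voom on the recovered reads, library weights, no variance trend, another filter, median-centring, a replicate block, 1 model for all libraries and leaving out libraries or mice. A list was described by counts and medians, with no set test. Genes with few reads carry the larger counting error.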

Additional observations from a re-analysis of the deposited data

Results flagged for a closer look

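In 6 of the 95 groups of 5 FMTg libraries examined for the named genes, 1 library lay apart, its gap to the nearest library divided by the range of the group exceeding the Dixon critical value of 0.71; chance alone gives about 1 in 20 such groups. Atg9b had 0 normalised reads in FMTg pancreas replicate 4, and 143 to 179.7 in the other 4 libraries. Bnip3 had 4633 in FMTg heart replicate 2, and 6266 to 6778 in the others. Map1lc3a had 415.5 in FMTg ovary replicate 5, and 524 to 568 in the others. Optn had 878.4 in FMTg ovary replicate 3, and 203 to 300.9 in the others. Ulk1 had 2365.7 in FMTg pancreas replicate 4, and 1175 to 1401 in the others. Wipi1 had 331.8 in FMTg kidney replicate 4, and 505 to 594 in the others. Of the 6 values, 4 came from FMTg replicates 4 or 5, which are 2 of the 5 libraries in every group.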

How the results depend on the processing

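The count of autophagy genes called between FMTg and Tg was 0 in every tissue under the alternatives run, except 1 in pancreas with library weights (Map1lc3a). On the mean over tissues it was 0, except 1 without the mouse block (Wipi1) and 1 without the low-numbered mice, FMTg replicates 4 and 5 (Atg9b). The median difference of the autophagy genes was 0.0433 in small intestine with library weights, in place of -0.0894. Leaving out 1 library at a time, the median ran from -0.0531 to -0.0100 in kidney (without Tg kidney replicate 3), from -0.104 to -0.0361 in pancreas, -0.155 to -0.0901 in ovary, -0.20 to -0.0890 in heart and -0.127 to -0.0255 in small intestine. Against the other Tg tissues, 3 autophagy genes were called in pancreas after median-centring, in place of 5, and 2 to 6 in ovary when 1 Tg replicate was left out, in place of 4. Of 1881 values of single named genes under alternatives, 146 changed sign and 0 of these were called. The causes were not tested.

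Counts over all genes moved more. In pancreas 68 genes were called, 568 with library weights, 315 in 1 model for all libraries, 109 without the low-numbered mice, 38 after median-centring, 10 without the variance trend, 2 over mice with an ovary library and 9 to 93 leaving out 1 library. In kidney it was 95, with 211, 59 and 46 to 94 under weights, 1 model and leaving out 1 library. Ovary, heart and small intestine gave 0, 3 and 0, but 17, 26 and 55 with weights and 63, 27 and 30 in 1 model; heart gave 1 without the low-numbered mice, and leaving out 1 library gave 0 to 3 in ovary and 1 to 4 in heart. Tg ovary against the other Tg tissues gave 3624 genes, and 2342 without replicate 3. The mean over tissues gave 118, with 341 without the block, 296 without the low-numbered mice and 54 to 167 leaving out 1 mouse. The difference between tissues gave 31, with 12, 7 and 3 to 51 in the same order, and 3 with voom.

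Replicate numbers name different mice in FMTg and Tg, and same-numbered libraries correlated from -0.587 to 0.592. With the number as a replicate block, 0 autophagy genes were called in each tissue, and 0, 119, 0, 0 and 0 of all genes in pancreas, kidney, ovary, heart and small intestine. Tg libraries of 1 mouse are paired by origin, with a median correlation of 0.0589; with the mouse as block the Tg counts were 5, 3, 4, 9 and 8, as without it. The part of depth in the wide intervals of Atg9b and Atg10 was not tested.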
